A study of Mus musculus with 38 samples.

Results

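Transcripts of 5 genes of the red blood cell lineage were followed across 38 arrays of brown adipose tissue dissected from C57BL/6J mice. They are Hba-a1 and Hbb-b1, which encode the alpha and beta chains of adult haemoglobin, Alas2, the erythroid enzyme of the first step of haem synthesis, Slc4a1, the band 3 anion exchanger of the red cell membrane, and Klf1, an erythroid transcription factor. Members were the gene names on the array that equal one of these, and all 5 of 5 were present among 29411 gene names. All 5 passed the filter for testing, which kept the 21856 genes well above background on at least 6 arrays. Klf1 passed with 6 arrays, the smallest number that the filter allowed, and the other members with 38.

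The mice were weaned at 3 to 4 weeks and fed a low fat control diet (LFC, 10 arrays) or a high fat high sucrose diet (HFC, 10 arrays). The other groups received Kal-1, a herbal formulation, on top of the HFC diet at 5 µg (HF5, 6 arrays), 20 µg (HF20, 6 arrays) or 75 µg (HF75, 6 arrays). Tissue of both control diets was taken on Days 6, 10 and 14, then in Weeks 0, 3, 6, 9, 12, 15 and 18, and tissue of the Kal-1 groups from Week 3 to Week 18. Every combination of group and time point is 1 array, so the time points stand in for replicates. In HFC against LFC and in the sign-flip tests the p-values measure how the difference varies between time points. The limma p-values of the Kal-1 groups rest on a spread pooled over the arrays of all groups, LFC included, at Weeks 3 to 18. A spread between mice cannot be told apart from either.

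Red blood cells are made in the bone marrow, and in the mouse also in the spleen. Their precursors fill with haemoglobin, make haem in the mitochondria, and then lose the nucleus. Young red cells, the reticulocytes, enter the blood with RNA still in them, above all globin, Alas2 and membrane protein RNA. Brown fat is dense in capillaries, and a dissected pad holds the blood that was in its vessels. Klf1 acts in the nucleated precursors and is low in circulating cells. In bulk tissue, fewer cells of a type and less RNA per cell cannot be told apart.

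The array reads the globins with several probes, and these are shown because how close each came to the top of the scanner's range decides which values can be compared. Of the 4 Hbb-b1 probes, a pair overlaps, and the 29 bases they share are in capitals.
Hba-a1, its only probe: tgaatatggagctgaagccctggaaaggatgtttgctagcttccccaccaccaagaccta
Hbb-b1, the probe with the highest mean: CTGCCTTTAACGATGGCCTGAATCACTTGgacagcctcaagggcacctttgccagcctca
Hbb-b1, the overlapping probe: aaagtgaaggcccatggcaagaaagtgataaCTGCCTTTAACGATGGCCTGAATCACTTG
Hbb-b1, the least saturated probe: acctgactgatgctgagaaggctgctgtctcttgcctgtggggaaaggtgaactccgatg
The Hba-a1 spot was saturated on 29 of 38 arrays. The highest-mean Hbb-b1 probe, which stands for the gene under the rule used here, was saturated on 33 arrays, the overlapping probe on 17, a further probe on 18, and the least saturated probe on 3. The Alas2, Slc4a1 and Klf1 probes were saturated on 0 arrays. The file's Hbb-b1 transcript carries the symbol Hbb-bt in RefSeq of GRCm38.p6, on chromosome 7, and the adult globin copies are nearly identical, so a globin probe may read more than 1 copy. Hba-a1 and Slc4a1 lie on chromosome 11, Klf1 on chromosome 8 and Alas2 on chromosome X.

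RefSeq promoters of GRCm38.p6 were matched for Hba-a1, Alas2, Klf1 and Hbb-bt, and Slc4a1 was not matched. The 250 bases before the start are shown for the globins and Alas2, because the signals of Alas2 and of a Hbb-b1 probe rose and fell together over the arrays. The Hba-a1 spot was too often saturated for such a relation to be examined. Capitals mark the GATA motif (AGATAA or TGATAA), bound by GATA factors such as Gata1, and the CACCC motif (CCNCNCCC), the kind of site that Klf1 binds, both searched on both strands.
Hba-a1, chr11:32283422-32283671, plus strand: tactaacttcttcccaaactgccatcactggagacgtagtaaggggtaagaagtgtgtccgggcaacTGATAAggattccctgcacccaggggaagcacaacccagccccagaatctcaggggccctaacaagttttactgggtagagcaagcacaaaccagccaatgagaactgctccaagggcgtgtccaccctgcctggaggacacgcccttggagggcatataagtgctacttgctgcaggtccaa
Hbb-bt, chr7:103813924-103814173, minus strand: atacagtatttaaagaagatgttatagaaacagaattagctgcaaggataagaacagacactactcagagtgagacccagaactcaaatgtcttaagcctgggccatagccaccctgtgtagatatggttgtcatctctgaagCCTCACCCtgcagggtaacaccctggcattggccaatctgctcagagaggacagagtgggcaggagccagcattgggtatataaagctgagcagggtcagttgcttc
Alas2, chrX:150547167-150547416, plus strand: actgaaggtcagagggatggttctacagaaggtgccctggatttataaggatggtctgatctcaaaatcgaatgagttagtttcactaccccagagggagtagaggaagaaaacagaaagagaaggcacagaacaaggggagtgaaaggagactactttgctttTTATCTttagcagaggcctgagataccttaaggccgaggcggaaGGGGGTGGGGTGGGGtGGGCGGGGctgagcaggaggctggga
The GATA motif was found once in the Hba-a1, Alas2 and Klf1 windows and not in that of Hbb-bt. The CACCC motif was found once in Hbb-bt and in 4 places in Alas2, 3 of which overlap. Of all 32851 promoters in the table, 16.6% hold the GATA motif, 45.9% the CACCC motif and 4.52% both. A match describes the letters of the window and nothing more.

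The arrays differed in overall brightness, and the erythroid values cannot be read without it. Their 75th percentiles of processed signal lay between 35.1 and 1209 intensity units. It was above 600 on 11 arrays, called bright here, and at most 430 on the other 27, called dim. Bright were 4 of 10 LFC arrays, 2 of 10 HFC arrays, 0 of 6 HF5 arrays, 4 of 6 HF20 arrays and 1 of 6 HF75 arrays. The 38 arrays lie on 32 slides scanned on 12 days. The brown fat marker Ucp1, the uncoupling protein, lay between 3.38 and 8.57 on the log2 scale relative to the array's 75th percentile on 37 arrays. The exception was the HF75 Week 3 array, with Ucp1 at -3.08 and Cidea, another brown adipocyte gene, at -1.78 against 5.58 or more elsewhere. That array goes against its tissue label, and the comparisons of the members and gene lists whose estimates rest on it are given with and without it. The HFC Day 10 array had the most spots marked as outliers by the scanner software, 1079 against 73 or fewer on the others.

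All 5 erythroid genes were lower relative to the array's 75th percentile on bright than on dim arrays, with log2 differences between -2.97 and -2.06, and on the unscaled signal none of them differed past the threshold. The percentile that scales the values is also the one that defines the classes, so the scaled and the unscaled values are given side by side. Every level in this paragraph is log2 processed signal minus the array's 75th percentile, with the lowest and highest array in brackets. Alas2 had a mean of 4.53 ± 1.5 (SD, n = 27) on dim arrays (1.58 to 7.12) and of 0.96 ± 0.72 (SD, n = 11) on bright arrays (-0.20 to 2.16). Slc4a1 had a mean of 0.27 ± 1.52 on dim arrays (-2.27 to 2.68) and of -3.16 ± 0.87 on bright arrays (-4.61 to -1.87). For Alas2 and Slc4a1 the ranges of both classes thus overlapped by a narrow margin. The least saturated Hbb-b1 probe had a mean of 7.18 ± 1.52 on dim arrays (3.86 to 9.75) and of 3.65 ± 0.92 on bright arrays (1.69 to 5.13). Klf1 had a mean of -4.94 ± 1.31 on dim arrays (-6.77 to -0.67) and of -6.91 ± 0.69 on bright arrays (-7.89 to -5.75), and no bright array except HFC Week 3 read it well above background. The HF75 Week 3 array held the lowest bright values of Alas2, Slc4a1 and the least saturated Hbb-b1 probe, and without it the lowest were 0.11, -4.19 and 2.57.

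In limma, with the group and the time point in the model, the bright minus dim difference in log2 level was -2.95 for Alas2 (SE 0.44, adjusted p = 4.9e-06) and -2.97 for Slc4a1 (SE 0.45, adjusted p = 5.99e-06). For Klf1 it was -2.06 (SE 0.49, adjusted p = 0.000829). The saturated probes gave -2.58 for Hba-a1 and -2.25 for Hbb-b1, with the signal near its ceiling on both sides. All 5 members passed the threshold of 0.05 and were lower, where 36% of the 21856 genes tested were called lower, 23.5% higher and 59.4% in either direction. Of the members only Alas2 and Slc4a1 were unsaturated and well above background on all 38 arrays. Klf1 was well above background on 5 of 27 dim and 1 of 11 bright arrays. A signal held at the ceiling or near background comes out lower when a higher percentile is subtracted. The calls of Hba-a1, Hbb-b1 and Klf1 thus say little about their level. The median over all genes was -0.31. Without the HF75 Week 3 array or the HFC Day 10 array all 5 still passed, with -2.82 and -3.04 for Alas2. Under quantile normalization Klf1 no longer passed (log2 difference -0.85, adjusted p = 0.160).

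Without scaling, the same fit gave a log2 difference in signal of -0.58 for Alas2 (adjusted p = 0.237), -0.59 for Slc4a1 (adjusted p = 0.231) and 0.32 for Klf1 (adjusted p = 0.554), and 0 of the 5 members passed while the median over all genes was 2.07. The mean log2 signal of Alas2 was 11.5 on dim arrays and 10.6 on bright arrays, and that of Slc4a1 was 7.21 and 6.48. On the unscaled signal the erythroid genes thus stood lower relative to the other genes of bright arrays, and did not differ past the threshold in their own values.

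**Figure D1:**
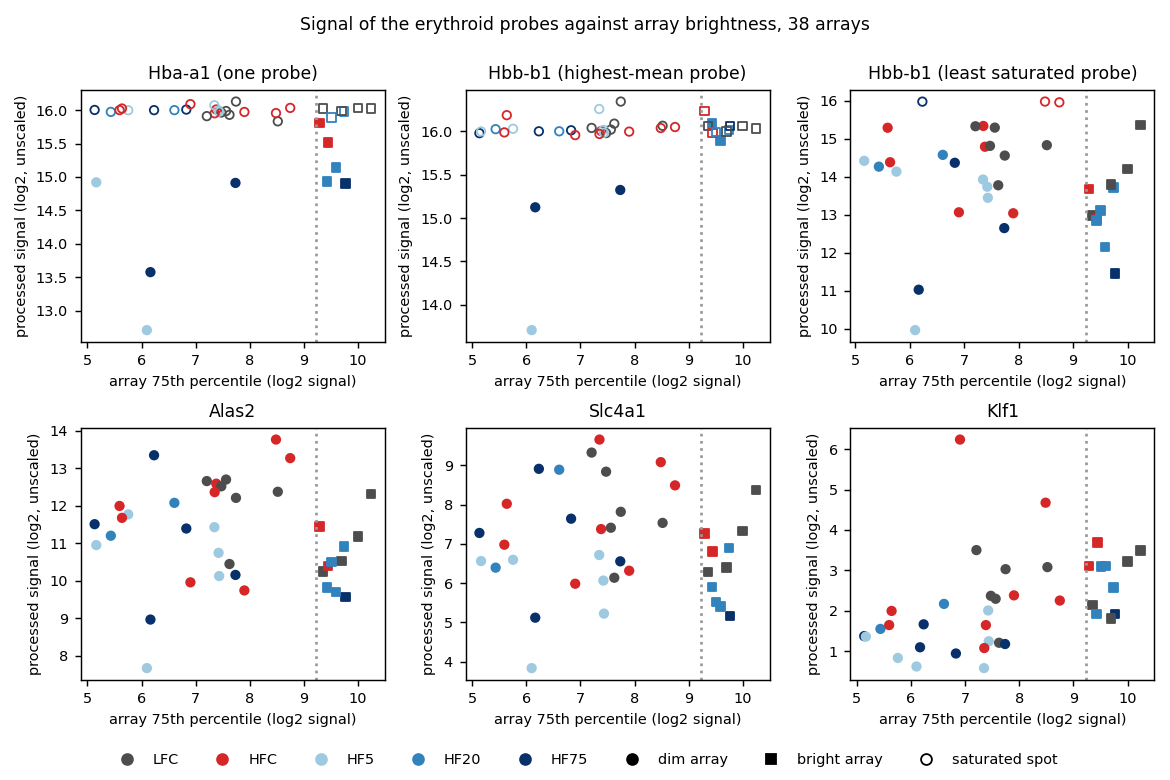
Log2 processed signal before scaling (vertical axis) against the log2 of the array's 75th percentile (horizontal axis) for the 5 genes and a further Hbb-b1 probe on the arrays that measured them. Colours are groups, circles are dim arrays, squares are bright arrays, open symbols are saturated spots, and the dotted line marks a 75th percentile of 600; Alas2 and Slc4a1 signals of bright arrays lie within the range of the dim ones.

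Within each brightness class the signals of Alas2, Slc4a1 and the least saturated Hbb-b1 probe went up and down together from array to array. The permutations used here treat arrays as interchangeable, although some share a slide, scan day, group or time point. Over the 27 dim arrays the unscaled log2 signals of Alas2 and Slc4a1 had a Pearson r of 0.882 and a Spearman rho of 0.874 (permutation p = 1.0e-05, the smallest that 100000 permutations can give, adjusted p = 4.0e-05 over 12 relations). Without the 2 arrays farthest from the median, HF5 Week 12 and HF75 Week 12, r was 0.819. Alas2 and the least saturated Hbb-b1 probe had an r of 0.958 and a rho of 0.951 over 26 dim arrays, and an r of 0.945 without the same arrays. Slc4a1 and that probe had an r of 0.842 and a rho of 0.878. Over the 11 bright arrays the relations had an r of 0.931, 0.932 and 0.905 in the same order, with rho of 0.918, 0.927 and 0.855 and adjusted p values of at most 0.00336. Without the 2 arrays farthest from the median r was 0.851, 0.920 and 0.774, and without HF75 Week 3 and HFC Day 10 it was 0.912, 0.963 and 0.895 over 9 bright arrays. The lowest signals were shared too. HF5 Week 12 had the lowest signal of both Alas2 (204 intensity units) and Slc4a1 (14.3), followed in both by HF75 Week 12 (501 and 34.7). The highest signals were those of HFC Day 14 for Alas2 (13949) and HFC Week 6 for Slc4a1 (806).

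With the array's own 75th percentile the relations within a class had a lower r over all dim or all bright arrays, and over bright arrays they rested on a few of them. Over dim arrays Alas2 had an r of 0.275 with it (rho 0.264, permutation p = 0.164, adjusted p = 0.196), Slc4a1 an r of 0.260 (adjusted p = 0.209) and the least saturated Hbb-b1 probe an r of 0.241 (adjusted p = 0.238). Over bright arrays r was 0.506, 0.476 and 0.540, none past the threshold, and it turned to -0.335, -0.387 and -0.251 without LFC Weeks 0 and 9. Without HF75 Week 3 and HFC Day 10 it was 0.882, 0.805 and 0.886 over the other 9 bright arrays.

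The diet comparison asks whether the high fat high sucrose diet changed the level of these genes in brown fat. Alas2 and Slc4a1 were higher in HFC than in LFC at most time points relative to the array's 75th percentile, the differences spread widely, and no member passed the threshold. The Alas2 signal before scaling had a lowest, median and highest value of 1223, 4921 and 6662 intensity units in LFC and of 859, 3686 and 13949 in HFC. Both groups overlapped, and HFC held both the lowest and the highest value. The scaled Alas2 level was 3.18 ± 1.85 (SD, n = 10) in LFC and 4.05 ± 1.90 (SD, n = 10) in HFC, again with overlap. The Slc4a1 signal ran from 70.3 through a median of 178 to 641 in LFC and from 63.2 through 160 to 806 in HFC. Its scaled level was -1.0 ± 1.84 and -0.08 ± 1.75.

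Set against each other at the same time point, HFC minus LFC in scaled log2 level for Alas2 was positive at 7 of 10 time points, between -2.31 at Day 10 and 5.21 at Week 9, with a mean of 0.87 ± 2.09 (SD, n = 10, exact two-sided sign-flip p = 0.234). For Slc4a1 it was positive at 8 of 10, between -2.09 at Day 10 and 4.06 at Week 9, with a mean of 0.92 ± 1.64 (exact p = 0.109). The 4 largest of these differences in size for each gene (Day 10 and Weeks 0, 9 and 12) all came from pairs of arrays in different brightness classes. At the 6 time points whose pair shared a class the mean was 0.19 ± 0.79 for Alas2 and 0.54 ± 0.62 for Slc4a1, with 4 and 5 of 6 positive. On the unscaled signal the mean over all 10 was 0.00 ± 0.81 for Alas2 (exact p = 0.996) and 0.05 ± 0.79 for Slc4a1 (exact p = 0.834). At Week 9 the Alas2 difference was 5.21 with scaling and 0.81 without. Without Day 10, whose HFC array held the many outlier spots, the limma estimates were 1.22 for Alas2 and 1.26 for Slc4a1. Without Week 9 the limma estimate fell from 0.87 to 0.39 for Alas2 and from 0.92 to 0.57 for Slc4a1.

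**Figure D2:**
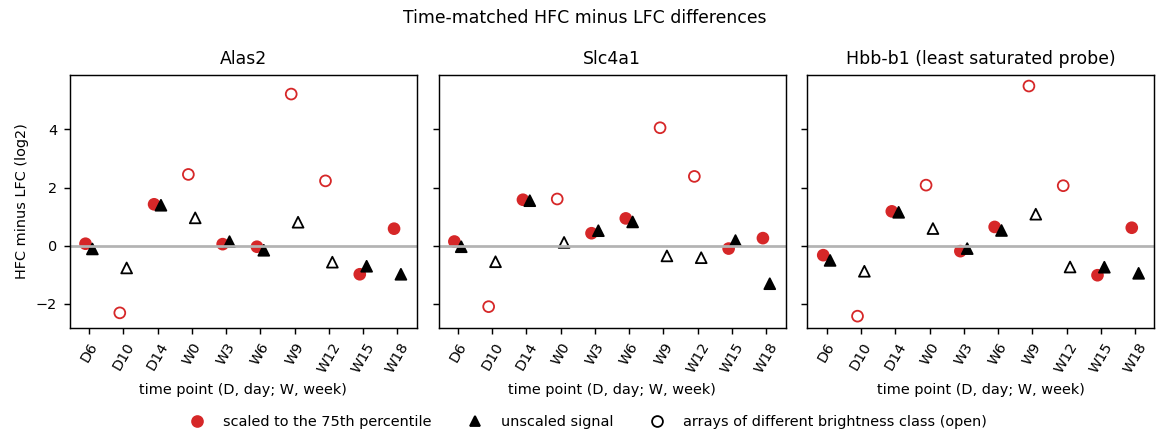
HFC minus LFC in log2 units (vertical axis) at each of the 10 time points (horizontal axis) for Alas2, Slc4a1 and the least saturated Hbb-b1 probe. Red circles are scaled levels, black triangles are unscaled signals, and open symbols are time points whose arrays fell in different brightness classes; the scaled values reach 5.21 for Alas2 at Week 9 while the unscaled mean over time points is 0.00.

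Of the globins, the least saturated Hbb-b1 probe ran from 8080 through a median of 26461 to 42342 intensity units in LFC and from 7546 through 24859 to 64709 in HFC. Its scaled difference was positive at 6 of 10 time points with a mean of 0.81 ± 2.14 (exact p = 0.281), and its unscaled mean was -0.05 ± 0.82. The Hba-a1 spot was saturated on 10 of 10 LFC arrays and 8 of 10 HFC arrays, and the highest-mean Hbb-b1 spot on all 20, so no fold change of theirs is given here. Klf1 was read well above background on 3 of 10 LFC arrays (Days 10 and 14 and Week 18) and on 3 of 10 HFC arrays (Day 14 and Weeks 3 and 12). Its HFC Week 12 signal of 75.5 intensity units was the highest of any array, and without Week 12 the limma estimate for Klf1 fell from 1.12 to 0.45. That array also had the highest share of spots well above background, 78.8%.

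With limma, 0 of 5 members were called in HFC against LFC, where 0% of all genes were called, and at an unadjusted p under 0.05 the count was 0 of 5 beside 6.98% of all genes. The log2 estimate was 0.92 for Slc4a1 (SE 0.47, adjusted p = 0.644), 0.87 for Alas2 (SE 0.59, adjusted p = 0.649) and 1.12 for Klf1 (SE 0.71, adjusted p = 0.644).

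Over days on the diet the erythroid genes had no slope that passed the threshold. The slope of scaled log2 level per week, with the diet in the model, was 0.050 for Slc4a1, -0.0008 for Alas2 and 0.066 for Klf1 (limma adjusted p between 0.230 and 0.995 over the members). Of the members 0 were called, where 1.63% of all genes were, and Hba-a1 had an unadjusted p under 0.05, as did 21.3% of all genes. A difference in slope between the diets was called for 0 members and for 0% of genes, with unadjusted p under 0.05 for 0 members and 15.3% of genes.

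**Figure D3:**
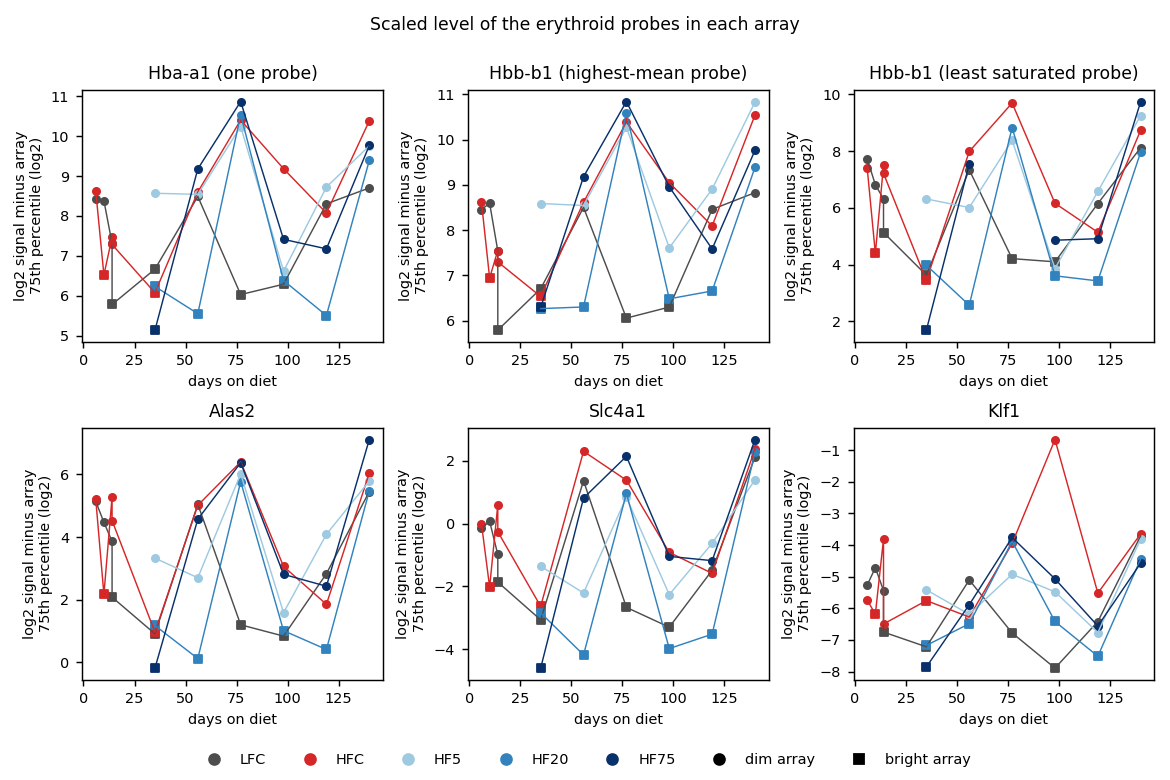
Scaled log2 level relative to the array's 75th percentile (vertical axis) against days on the diet (horizontal axis) for the 5 genes and a further Hbb-b1 probe. Lines join the 1 array per time point of each group, Day 14 and Week 0 both stand at day 14, and the lines of all groups cross.

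The Kal-1 comparisons ask whether the formulation given with the HFC diet moved these genes away from their HFC level. In HF20 all members were lower than HFC relative to the 75th percentile, and 4 of 6 HF20 arrays were bright against 1 of 6 HFC arrays at the same weeks. The unscaled Alas2 signal ran from 832 through a median of 1692 to 4332 in HF20, from 204 through 1852 to 3500 in HF5 and from 501 through 1920 to 10439 in HF75. The unscaled Slc4a1 signal ran from 42.3 through 71.9 to 474 in HF20, from 14.3 through 80.6 to 105.02 in HF5 and from 34.7 through 124 to 481 in HF75. All 3 groups overlapped HFC and each other in both genes. The least saturated Hbb-b1 probe ran from 4558 through a median of 11156 to 24438 in HF20, from 995 through 14613 to 21911 in HF5 and from 2081 through 6413 to 64632 in HF75. Klf1 was not well above background on any of the 18 Kal-1 arrays.

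Slc4a1 was lower in HF20 than in HFC at 6 of 6 weeks in scaled log2 level, between -6.49 and -0.10, with a mean of -2.04 ± 2.47 (SD, n = 6, exact sign-flip p = 0.0312, the smallest that 6 pairs allow). In limma the adjusted p of this difference was 0.122. Alas2 was lower at 5 of 6 weeks with a mean of -1.57 ± 1.81 (exact p = 0.0625, limma adjusted p = 0.170). Week 6 held the largest difference of both genes, and without Week 6 the limma estimates were -1.15 for Slc4a1 and -0.90 for Alas2. At the 3 weeks with arrays of the same brightness class the mean was -0.24 ± 0.17 for Slc4a1 and -0.33 ± 0.47 for Alas2. The least saturated Hbb-b1 probe had a scaled mean difference of -1.80 ± 2.05 (exact p = 0.0625) and an unscaled one of -0.55. On the unscaled signal the mean was -0.79 ± 1.78 for Slc4a1 (exact p = 0.344) and -0.32 ± 1.25 for Alas2 (exact p = 0.75). With the brightness class as a term in limma the difference was -0.34 for Slc4a1 (adjusted p = 0.973) and 0.04 for Alas2 (adjusted p = 0.994). In limma 0 of 5 members and 0% of genes were called in HF20 against HFC. At an unadjusted p under 0.05 the count was 4 of 5 members, all but Alas2, beside 33.1% of all genes and 19.9% of all genes in the lower direction. Of these 4 only Slc4a1 was read within range, since Klf1 was well above background on 0 of 6 HF20 arrays and each globin spot was saturated on 4 of 6.

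Alas2 in HF5 minus HFC had a mean scaled difference of 0.03 ± 1.92 (exact p = 0.969) and Slc4a1 of -0.86 ± 2.08 (exact p = 0.375). On the unscaled signal these means were -0.57 ± 1.54 (exact p = 0.344) and -1.46 ± 1.70 (exact p = 0.0938, lower at 5 of 6 weeks). For Slc4a1 Week 6 again stood apart, with a scaled difference of -4.52, the HFC Week 6 array being the one with the highest Slc4a1 signal. Without Week 6 the limma estimate for Slc4a1 was -0.13. The scaled Alas2 differences went both ways, with -2.32 at Week 6, 2.37 at Week 3 and 2.24 at Week 15. In HF75 minus HFC the mean was -0.04 ± 0.78 for Alas2 (exact p = 0.906) and -0.35 ± 1.11 for Slc4a1 (exact p = 0.469), and on the unscaled signal -0.20 ± 1.05 and -0.52 ± 1.17. Without the HF75 Week 3 array, which lacks the brown fat markers, the limma estimates were 0.45 for Alas2 (adjusted p = 0.908) and 0.21 for Slc4a1 (adjusted p = 0.960), both turned in direction. In limma 0 of 5 members were called in HF5 and in HF75 against HFC, where 0% of all genes were called. At an unadjusted p under 0.05 the counts were 0 members in each, beside 5.46% of genes in HF5 and 9.15% in HF75. These 3 comparisons share their HFC arrays and, in limma, a common estimate of the spread, which the HF75 Week 3 array enters. Ordered by the mean scaled level over Weeks 3 to 18, which all groups share, Alas2 stood at 3.92 ± 1.75 in HF5, 3.89 ± 2.27 in HFC, 3.85 ± 2.72 in HF75, 2.71 ± 2.10 in LFC and 2.32 ± 2.59 in HF20. Slc4a1 stood at 0.15 ± 2.15 in HFC, -0.20 ± 2.68 in HF75, -0.71 ± 1.55 in HF5, -1.18 ± 2.36 in LFC and -1.88 ± 2.78 in HF20. Over its 5 weeks without Week 3, HF75 stood at 4.66 ± 2.09 and 0.68 ± 1.77. Each step between neighbours in both orders was smaller than the SD of either group.

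**Figure D4:**
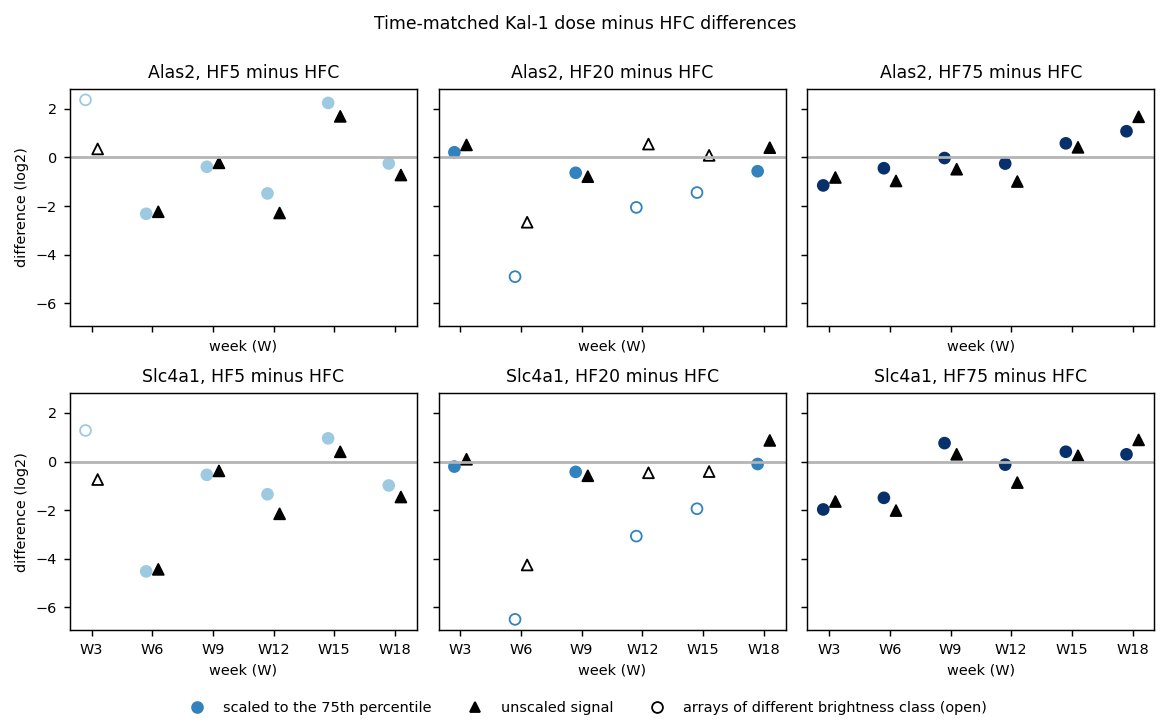
Each Kal-1 group minus HFC in log2 units (vertical axis) at Weeks 3 to 18 (horizontal axis) for Alas2 and Slc4a1. Coloured circles are scaled levels, black triangles are unscaled signals, and open symbols are weeks whose arrays fell in different brightness classes; in HF20 the lowest scaled Slc4a1 value, -6.49, is at Week 6.

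Among the 3 doses, limma's F test called 0 members where 13.4% of all genes were called, and Hbb-b1 alone had an unadjusted p under 0.05, beside 37.3% of genes. Without Week 9, Hbb-b1 was called (F = 7.69), by a probe saturated on 13 of 18 Kal-1 arrays. In that fit 5389 of the 21856 genes were called. The least saturated Hbb-b1 probe was not called without Week 9 (F = 3.62, adjusted p = 0.112). Without the HF75 Week 3 array, or with the brightness class in the model, 0 of all genes were called among the doses.

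The erythroid pathway was then read by role, from a list of 58 genes of which 55 are on the array and 50 were tested. In HFC against LFC the log2 estimate was positive for 39 of 50 and negative for 11, with a median of 0.37 beside 0.06 over all genes, and 0 were called (limma, 0% of all genes called). Without scaling the direction turned, with 14 of 50 positive and a median of -0.50 beside -0.82 over all genes. At an unadjusted p under 0.05, 4 were higher and 1 lower, beside 4.78% and 2.2% of all genes. Large estimates of each role follow. Among globins these were Hbq1a, a theta globin (1.41, SE 0.56), and Hbb-y, an embryonic beta-like chain (1.06, SE 0.58). Among membrane genes Epb42, the red cell protein 4.2, had the largest (1.71, SE 0.53). Among regulators they were Gata1, a master factor of the lineage (1.39, SE 0.60), and Klf1. In haem synthesis they were Alas2 and Urod (-0.63, SE 0.37), and among enzymes and maturation genes Steap3, an iron reductase of red cell precursors, stood at 0.89 (SE 0.41). Ahsp, the chaperone of free alpha globin, had an estimate of 0.96. The limma adjusted p of each was 0.644, apart from 0.649 for Alas2. Several of these estimates come from probes near background, since Epb42 was well above it on 8 of 38 arrays, Gata1 on 10, Steap3 on 13 and Hbq1a on 15. The median of the list was -0.23 in HF5, -0.55 in HF20 and -0.32 in HF75 against HFC, with 35, 33 and 37 of 50 negative and 0 called in each. In HF75 without its Week 3 array the median was -0.12 with 29 of 50 negative. In HF20 the median turned to 0.70 without scaling, beside 1.05 over all genes.

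Between bright and dim arrays the genes of the list went both ways, beside 36% of all genes called lower and 23.5% called higher. All 5 globin genes tested were called lower in scaled level, as was Ahsp (log2 difference -2.65). Among these globins Hba-a1 and Hbb-b1 were saturated on 29 and 33 of 38 arrays, and Hbb-bh1 and Hbq1a were well above background on 11 and 15. All 9 lineage regulators were called lower, among them Nfe2 (-3.39, limma adjusted p = 1.24e-08) and Tal1 (-2.30), both of which platelet precursors also use. The regulators Klf1 and Gata1 were well above background on only 6 and 10 of 38 arrays. Of the membrane and skeleton genes 7 were called lower, among them Slc4a1, and 2 higher. Of the haem synthesis genes Alas2 was the only one called lower, and 5 were called higher, among them Alad (1.91) and Urod (1.88), which encode steps that all cells use. Of the enzymes and maturation genes 4 were called lower and 6 higher, among them the transferrin receptor Tfrc (2.19) and the iron transporter Slc11a2 (2.07). In all 27 of 50 were called lower and 13 higher, with a median of -0.80. Without the HF75 Week 3 array 26 were lower and 14 higher, 5 of 5 globins and 9 of 9 regulators among the lower, beside 37.2% and 25% of all genes. Quantile normalization left 3 of 5 globins and 6 of 9 regulators called lower. Without scaling the median of the list turned to 1.58 beside 2.07 over all genes, that of the globins to 0.13 with 0 called, and that of the regulators to 0.82 with 2 called higher and 1 lower.

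Markers of platelets, neutrophils and endothelium also differed with brightness in scaled level, beside 36% of all genes called lower and 23.5% called higher. Of the platelet list 9 of 10 genes were called lower on bright arrays (median log2 difference -3.35), of the neutrophil list 9 of 11 (-3.55), and of the endothelial list 7 of 7 (-2.70). Of the lymphocyte list 3 of 10 were called lower, a share below that of all genes. The counts were 10, 9, 7 and 4 without the HF75 Week 3 array. Some platelet and neutrophil genes lay near background, Gp5 being well above it on 14 of 38 arrays, Gp1ba and Elane on 21 and Ngp on 24. Others, such as Pf4 and S100a9, were well above it on all 38. The log2 of the platelet list's summed level lay between 2.49 and 5.23 on dim arrays and between 1.37 and 4.44 on bright ones, and that of the endothelial list between 7.86 and 9.47 and between 4.95 and 7.65. Both bright maxima were the HF75 Week 3 array, and without it the highest were 2.79 and 6.28. Of the macrophage list 5 of 8 were called higher (0.95), of the brown adipocyte list 5 of 11 were higher and 1 lower (1.19), and of the skeletal muscle list 0 of 10 were called (-0.49). Of the brown adipocyte genes Ucp1 was saturated on 8 arrays and Cidea, Cox8b and Cox7a1 on 10 each. Without the HF75 Week 3 array the macrophage list had 5 higher (0.79) and the brown adipocyte list 6 higher and 1 lower (1.59). The skeletal muscle list then had 0 called and a median that turned to 0.09. In HFC against LFC the medians were 0.56 for platelets, 0.91 for neutrophils, 1.05 for lymphocytes, 0.51 for endothelium and 0.08 for brown adipocytes, with 0 called in each list. Without scaling the bright minus dim medians were -0.98 for platelets (5 lower, 1 higher), -1.17 for neutrophils (2 lower, 2 higher), -0.32 for endothelium (0 called) and 1.51 for lymphocytes (7 higher), and the HFC minus LFC medians were -0.31, 0.04, -0.36 and 0.18 in that order. Over all genes these unscaled medians were 2.07 and -0.82, and the unscaled counts stand without a share of all genes. The lists' part in the erythroid values was not tested. Of 10 genes of haem and iron clearance that were tested, such as those that handle haem from aged red cells, 0 were called in HFC against LFC (median -0.09). On bright arrays 6 of them were called higher and 1 lower in scaled level (median 1.66), and the same counts held without the HF75 Week 3 array (1.53). Without scaling their bright minus dim median was 4.04.

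Genes most like the members were sought over all 21856 genes by the Pearson r with the mean z-score of the 5 members' scaled levels, given as a description without a test because arrays share brightness. Over the 38 arrays, with r over the 27 dim arrays after the comma, the 10 highest among other genes included Gm6936 (0.948, 0.883), 1700024P12Rik (0.940, 0.867), LOC100045941 (0.939, 0.840) and Gpr161 (0.924, 0.793). Trim38 (0.911, 0.740), Olfr744 (0.911, 0.814), Gm5226 (0.911, 0.75) and Vav2 (0.908, 0.755) were also among them. The median r of all genes was 0.177 and the 99th percentile 0.832 over the 38 arrays, and 0.061 and 0.688 over the dim ones. Arrays of both brightness classes enter this score.

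Over the 27 dim arrays, with the score taken from Alas2 and Slc4a1, which were never saturated, most of the leading names were others. This score was chosen after the data were seen, and both the score and the genes are scaled levels. Among the highest were Bpgm, the red cell enzyme that makes the haemoglobin effector bisphosphoglycerate (r = 0.963), Slc25a37, mitoferrin, which brings iron into mitochondria for haem (0.946), E2f2, a cell cycle factor of erythroid precursors (0.941), Mkrn1 (0.919) and Ube2o, a ubiquitin enzyme of reticulocyte maturation (0.894). Gm6036 (0.881), Slc38a5 (0.878), 2810453I06Rik (0.874) and Fam46c (0.857) followed. The median of all genes was 0.026 and the 99th percentile 0.517.

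By role, all 5 of 5 globin genes lay above that percentile, between 0.58 and 0.81. Of these the Hba-a1 and Hbb-b1 spots were saturated on 23 and 24 of the 27 dim arrays, and Hbb-bh1 and Hbq1a were well above background on 9 and 11. Above it as well were Ahsp (0.832), 6 of 12 enzymes and maturation genes, and 5 of 14 membrane genes, Slc4a1 included. Of the haem synthesis genes only Alas2 itself did. Of the lineage regulators, Klf1 included, 0 of 9 did, with r between -0.31 and 0.365. Klf1 was well above background on 5 of the 27 dim arrays, Gata1 on 6 and Gfi1b on 13, so their r rests largely on values near background. Tal1, Zfpm1, Epor, Lmo2 and Lyl1 were well above it on all 27. From which cells their RNA came was not tested, so the count of regulators does not tell whether precursors were present. Without Alas2 and Slc4a1, 16 of 48 genes of the list lay above the percentile that 1% of all genes exceed, and the list's median was 0.29.

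**Figure D5:**
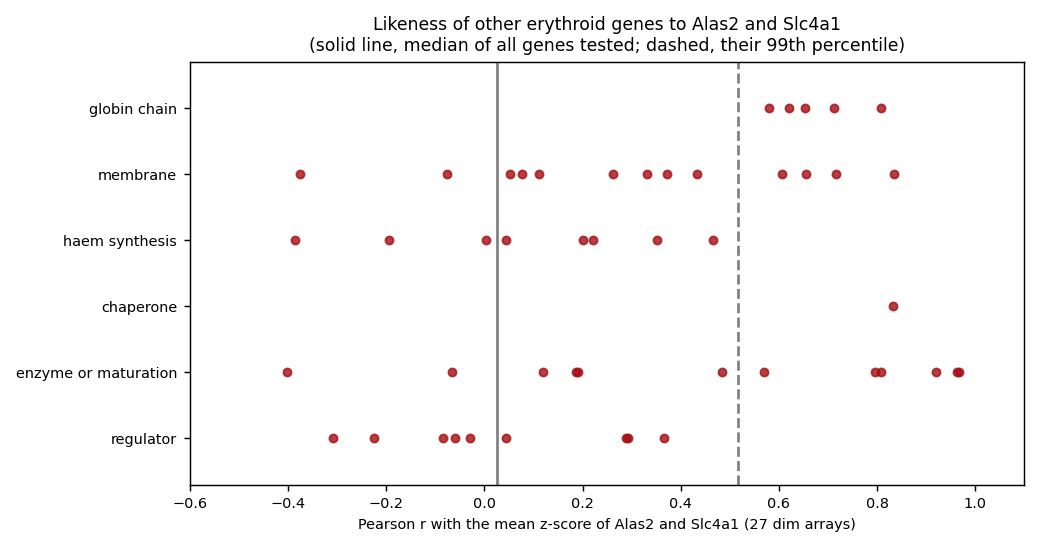
Pearson r (horizontal axis) of 48 erythroid pathway genes, arranged by role (vertical axis), with the mean z-score of Alas2 and Slc4a1. Both are scaled levels over the 27 dim arrays, so the same array percentile was subtracted from both. Each point is a gene, and the lines mark the median over all genes, 0.026, and their 99th percentile, 0.517; the globins lie above the second line and the regulators below it.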

How the data were processed

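Brown adipose tissue RNA was labelled with Cy3 (Quick-Amp) for a custom mouse array of 1 colour, per the labels. Spot values in the deposited scanner files are in intensity units, and the authors' processed signal is corrected for background but not scaled between arrays. The file headers name Feature Extraction 10.5.1.1 and the build mm9, and the submitters' processing notes name version 9.1. A deposited table gives log2 values set by the authors against the time-matched LFC array. Its columns correlated at 0.994 to 1.000 with the same scanner differences, except the 4 of Week 15 (-0.005 to 0.002), so it served only as an alternative. Of its sample columns 0 were left unmapped.

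From the log2 of the processed signal, each array's 75th percentile was subtracted. The probe with the highest mean stood for a gene. Genes that 6 or more of the 38 arrays read well above background were tested with limma 3.58.1 (R 4.3.3), two-sided, at a threshold of 0.05 after Benjamini-Hochberg adjustment over the 21856 genes. The time point was a block. It is a label that both groups share by design, and deviations of time-matched LFC and HFC arrays correlated at -0.258 to 0.671, over 0.1 in 7 of 10 pairs. Bright against dim had group and time point in the model, the trend had the diet, and the doses were compared by the F test. Single differences were tested by an exact sign-flip test in R. The relations between signals were tested by permutation in Python 3.11.15 with scipy 1.17.1. Adjusted p values are limma's unless a permutation is named. The small number of arrays and, for dim probes, the background limit the precision. The fits were tested on simulated data.

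Named genes were the members, the erythroid list genes with the 2 largest HFC to LFC changes of each role or past a test, and the 10 genes most like the members. A few of the genes so chosen are not reported here. Members and lists were chosen with earlier results of these data known. Alternatives were quantile normalization, normexp (offset 50), other filters and probes, slide and scan day as blocks, the brightness class, saturated spots as missing, a floor, the deposited table, Day 14 and Week 0 joined, a fit on all arrays, the methods' unmoderated test and leaving out each time point. Chosen after seeing the data were no scaling, the least saturated Hbb-b1 probe, the score of Alas2 and Slc4a1, the table without Week 15, and leaving out the HF75 Week 3 or HFC Day 10 array (both for the relations, the first for gene lists and levels). Promoter and protein sequences of Slc4a1 were not used here.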

Additional observations from a re-analysis of the deposited data

Results flagged for a closer look

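Klf1 on the HFC Week 12 array, at -0.67 in log2 relative to the array's 75th percentile, stood apart from the other 9 HFC arrays. The Week 12 array also had 78.8% of its spots well above background, the highest share of the 38 arrays. HFC Day 14, with the next highest unscaled Klf1 signal (25.5), had the second highest share, 77.0%. A link was not tested. The gap of Klf1 on HFC Week 12 to the nearest HFC array was 0.511 of the group's whole range, above the critical value of 0.466 for 10 samples. Of 25 combinations of a member and a group examined in this way, 1 stood out, and chance gives about 1 in 20.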

How the results depend on the processing

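In HFC against LFC and in each Kal-1 group against HFC, 0 of 5 members were called under every alternative and without any time point. Of the members tested, all were lower on bright arrays under the alternatives run but no scaling, with 4 called under quantile normalization (not Klf1) and without saturated spots (not Hbb-b1), and 4 of 4 under the filter for every array, which leaves Klf1 untested. With no scaling the count fell from 5 to 0 and the log2 difference turned to 0.13 for Hbb-b1 and 0.32 for Klf1. Leaving out a time point kept it at 5. Among the doses the count ran from 0 to 1 over left-out time points. It was 1 (Hbb-b1) without Week 9, where 5389 of the 21856 genes were called.

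The other directions that turned were those of members not called. With no scaling HFC against LFC was -0.045 for Hba-a1 and -0.029 for Hbb-b1, whose spots were mostly saturated in both groups. In HF5, Alas2 was -0.22 with quantile normalization, -0.11 with slide as a block, -0.51 with the brightness class, -0.44 on dim arrays, -0.47 in the deposited table, -0.43 there without Week 15 and -0.57 with no scaling. Hba-a1 was 0.13 with quantile normalization and 0.20 with normexp. Hbb-b1 was -0.052 over all probes, -0.15 with the brightness class, -0.11 on dim arrays, -1.35 without saturated spots, -0.093 in the table, -0.35 with no scaling and -0.13 by its least saturated probe. In HF20, Alas2 was 0.039 with the brightness class. In HF75, Alas2 was 0.19 on dim arrays, 0.045 within scan days and 0.45 without the Week 3 array, which gave Hbb-b1 0.15 and Slc4a1 0.21.

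For the slope per week Alas2 was 0.0038 with quantile normalization and 7.2e-05 with slide as a block. Hba-a1 was -0.12 without saturated spots, and no scaling gave -0.0022 for Hbb-b1, -0.030 for Slc4a1 and -0.014 for Klf1. The difference in slope was -0.023, -0.042, -0.062 and -0.016 for Alas2 and -0.0039, -0.042, -0.057 and -0.0066 for Slc4a1 with the brightness class, on dim arrays, with no scaling and without the HFC Day 10 array. Leaving out time points gave ranges that cross 0 for HF5 (Alas2 -0.44 to 0.50, Hba-a1 -0.55 to 0.46, Hbb-b1 -0.11 to 0.59), HF75 (Alas2 -0.26 to 0.19, Hbb-b1 -0.23 to 0.035), the slope (Alas2 -0.099 to 0.034, Slc4a1 -0.050 to 0.090) and the difference in slope (Alas2 -0.016 to 0.10, Slc4a1 -0.0066 to 0.099). The cause was not tested.

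The fit without the replicate block of time points left the members called at 0 in HFC against LFC (Alas2 0.87, adjusted p = 0.850) and in each Kal-1 group, and at 5 for bright against dim. The block changed no other call of a member. Counts over all genes moved more. HF20 against HFC had 0 called genes and 3592 without Week 3. The doses had 2924 called genes, 0 to 6459 over the alternatives and 1237 without the block. The slope had 356 and 2 to 1734, bright against dim 12987 and 7150 to 20397, the difference in slope 0 and up to 669, HFC against LFC 0 and up to 11 (0 by the methods' unmoderated test), and HF75 0 and up to 1. Without scaling the median of all genes moved from -0.31 to 2.07 in bright against dim, from 0.06 to -0.82 in HFC against LFC and from -0.20 to 1.05 in HF20. Saturation limits the globin values, and Klf1 lay near background.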

Other observations

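Among the doses, 9 of the 50 erythroid pathway genes were called by limma's F test beside 13.4% of all genes. Among them were the haem synthesis genes Alad, Uros and Urod, the membrane gene Gypc, the regulators Tal1, Epor and Lyl1, and Prdx2, an antioxidant enzyme of red cells. In HF20 against HFC the log2 estimate was 1.43 for Alad and 1.30 for Urod, and 0 genes were called in that comparison. Most HF20 arrays were bright, and both genes were called higher on bright arrays, so dose and brightness cannot be told apart here. Without the HF75 Week 3 array, or with the brightness class in the model, 0 of all genes were called among the 3 doses.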
